A study of Mus musculus with 12 samples.

Results

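Retnlg, Wfdc17, Wfdc21, Pglyrp1 and Slpi, 5 genes for small secreted proteins were followed through spleen neutrophils and monocytes of mice treated with cryo-thermal therapy (CTT), in which a tumor is frozen and heated in place. They were chosen from a larger set of results partly by the values measured in these same libraries, so their levels and differences are given as a description. All 5 are present among the 16805 genes of the neutrophil table and the 16954 genes of the monocyte table, which have 16283 genes in common.

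All mice were wild type. The control neutrophils came from tumor-bearing mice without CTT (n = 3 libraries) and the treated neutrophils from mice 12 h after CTT (n = 3), both taken from the spleen by magnetic selection for Ly6G, a neutrophil surface protein. The monocytes were selected from the spleen for CCR2, a chemokine receptor of inflammatory monocytes, 5 days after CTT, from mice without anti-Ly6G (n = 3) and from mice given anti-Ly6G, an antibody in use for depleting neutrophils (n = 3). Both monocyte groups had thus received CTT, and no monocytes without it were analysed here. Strain, age, tumor model, antibody schedule, purity and the number of mice behind each library are not stated in the labels used here. The libraries are labelled as biological replicates, and where mice are not named the tests measure only the spread between libraries.

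The 5 proteins come from 3 families. Retnlg encodes resistin-like gamma, a cysteine-rich secreted protein of the resistin family that is found in rodent neutrophils and marrow. Wfdc17, Wfdc21 and Slpi encode proteins with the whey acidic protein (WAP) fold, a compact domain held by disulfide bonds that occurs in protease inhibitors and antimicrobial proteins. SLPI, the secretory leukocyte protease inhibitor, blocks neutrophil elastase and cathepsin G and also damps inflammatory signaling in macrophages. Wfdc17 is known in mice from activated macrophages and microglia. Pglyrp1 encodes a peptidoglycan recognition protein that is stored in neutrophil granules and binds the bacterial cell wall.

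The genes lie on 4 chromosomes of GRCm38 (mm10), and RefSeq lists all 5 as protein coding. Retnlg (Entrez gene 245195) lies on the plus strand of chromosome 16 from 48872608 to 48874498, with 4 exons and 117 codons. Wfdc17 (100034251) lies on the plus strand of chromosome 11 from 83704056 to 83706269, with 3 exons and 76 codons. Wfdc21 (66107) lies 40670 bases further along the same strand, from 83746940 to 83752646, with 3 exons and 63 codons, and Wfdc18 lies between them. Pglyrp1 (21946) lies on the plus strand of chromosome 7 from 18884690 to 18890438, with 3 exons and 182 codons. Slpi (20568) lies on the minus strand of chromosome 2 from 164354070 to 164356507, with 4 exons and 131 codons, within 1 Mb of 15 of the 21 genes of the WAP-domain list (Slpi included). Exon and codon numbers are those of the first basic GENCODE transcript. No stretch of 50 bases of their transcripts was shared with the transcripts of another gene. Exons of Slpi overlap the miRNA gene Mir7678 on the same strand, and how reads there were counted is not given.

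The 250 bases before the RefSeq start site (GRCm38.p6) are shown for 4 of the members, as no such window was at hand for Wfdc21. Of these genes 3 shared one order of the group means, and Slpi had another, with CTT monocytes highest. Their upstream windows are set side by side, and a link with levels was not tested. Each is read 5′ to 3′ in the direction of the gene, and capitals mark the letters TTNNGNAA, a pattern of the C/EBP type, on either strand. C/EBP factors drive the granulocyte program. The windows are chr16:48872358-48872607 (plus strand) for Retnlg, chr11:83703806-83704055 (plus strand) for Wfdc17, chr7:18884440-18884689 (plus strand) for Pglyrp1 and chr2:164356508-164356757 (minus strand) for Slpi.
Retnlg: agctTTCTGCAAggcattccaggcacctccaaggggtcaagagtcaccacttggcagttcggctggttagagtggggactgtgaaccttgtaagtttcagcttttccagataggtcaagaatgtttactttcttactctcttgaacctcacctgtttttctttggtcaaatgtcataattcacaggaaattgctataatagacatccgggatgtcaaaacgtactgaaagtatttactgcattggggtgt
Wfdc17: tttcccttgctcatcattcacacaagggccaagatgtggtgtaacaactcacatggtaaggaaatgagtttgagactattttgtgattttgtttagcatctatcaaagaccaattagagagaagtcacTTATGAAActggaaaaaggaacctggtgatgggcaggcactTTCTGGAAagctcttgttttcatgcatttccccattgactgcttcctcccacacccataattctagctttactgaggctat
Pglyrp1: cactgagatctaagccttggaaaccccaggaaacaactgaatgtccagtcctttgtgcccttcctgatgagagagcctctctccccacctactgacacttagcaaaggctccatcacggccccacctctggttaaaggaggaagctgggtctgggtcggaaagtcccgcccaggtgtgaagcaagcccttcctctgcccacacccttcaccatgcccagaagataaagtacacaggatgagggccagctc
Slpi: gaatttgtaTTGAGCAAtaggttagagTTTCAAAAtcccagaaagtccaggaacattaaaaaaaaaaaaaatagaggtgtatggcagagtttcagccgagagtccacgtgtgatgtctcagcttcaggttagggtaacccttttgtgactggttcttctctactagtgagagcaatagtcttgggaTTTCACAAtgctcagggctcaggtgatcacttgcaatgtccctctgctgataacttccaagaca

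The pattern occurred 1 time before Retnlg, at 246 bases from the start site, and 2 times before Wfdc17, at 122 and 81 bases. It occurred 3 times before Slpi, at 241, 223 and 64 bases, and 0 times before Pglyrp1. Of 32851 RefSeq windows of the same length, 36.8% held it. The letters GAGGAA, of the type bound by the myeloid factor PU.1, were found on either strand 39 bases before Wfdc17 and 113 and 62 bases before Pglyrp1, and in 23.3% of all windows. The letters TTCNNNGAA, of the STAT type, were in none of the 4 windows and in 7.02% of all. No match overlapped another. GENCODE sets other starts. Its Wfdc17 begins at 83703991, inside the window, so the match at 39 bases lies within that gene. Its Pglyrp1 begins at 18871331 and its Slpi, on the minus strand, at 164389095, both further upstream. A match describes these letters only.

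Levels are given as CPM, read counts divided by the library's total and put on a common scale, with TMM, a factor that evens out the composition of the libraries of one table. Differences come from edgeR's quasi-likelihood test fitted to all genes of a table, with a threshold of 0.05 on the adjusted p. The neutrophil libraries held 30942849 to 34935547 counted reads and the monocyte libraries 31865982 to 35956571. Control replicate 1 of the neutrophils stood apart: across genes its Pearson r with the rest of that table was 0.916 to 0.958 (log2 CPM), where all other pairs reached 0.972 or more. The sum of its erythroid markers was 14453 CPM. That sum was 2413 and 786 CPM in control replicates 2 and 3, and 361 to 897 CPM after CTT. The selected cells were mixed in every group. Summed B cell markers stood at 3140 to 7903 CPM in control neutrophils, and Ly6g itself at 11.8 ± 2.66 CPM there (SD, n = 3), no higher than the 13.6 ± 2.26 CPM of CTT monocytes. No gene of the marker lists that is in the tables was at 0 in a whole group.

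In neutrophils 12 h after CTT, all 5 genes had a higher mean than in control, by 1.46-fold (Slpi) to 3.22-fold (Retnlg). Retnlg, the resistin-like gene, read 111, 105 and 74.8 CPM in control replicates 1, 2 and 3 and 221, 380.1 and 339 CPM in CTT replicates 1, 2 and 3. Every CTT library lay above every control library, and CTT replicate 1 was the lowest of the treated ones. Its log2 fold change was 1.69 (SE 0.25). In bulk samples such as these, more cells of a type and more RNA per cell cannot be told apart.

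The WAP-domain pair on chromosome 11 differed by similar amounts. Wfdc17 read 42.5, 48.1 and 34.5 CPM in control and 59.8, 108 and 99.9 CPM after CTT, a log2 fold change of 1.10 (SE 0.25). Wfdc21, the least abundant of the 5, read 7.44, 11.6 and 7.76 CPM in control and 13.2, 19.96 and 25.4 CPM after CTT, a log2 fold change of 1.13 (SE 0.29). In both genes the groups did not overlap, and CTT replicate 1 lay closest to control.

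Pglyrp1, the peptidoglycan-binding granule protein, read 58.9, 69.9 and 64.0 CPM in control and 75.2, 103 and 130.5 CPM after CTT, a log2 fold change of 0.68 (SE 0.21). Its groups did not overlap either, although CTT replicate 1 lay only a little above control replicate 2. Slpi, the protease inhibitor, read 95.6, 112 and 114 CPM in control and 102, 181 and 185 CPM after CTT, a log2 fold change of 0.54 (SE 0.23). Here the groups overlapped, because CTT replicate 1 lay below control replicates 2 and 3.

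Of the 5 genes, 1 (Retnlg) passed the edgeR threshold as higher after CTT, where 0.567% of all 13058 tested genes did, and 0 passed as lower, as for 0% of all genes. At an unadjusted p under 0.05, 4 of the 5 were higher and 0 lower in edgeR. Of all 13058 tested genes 1830 had such a p, in either direction. DESeq2 called 3 of the 5 higher and 0 lower, and its counts over all genes are given below. In 4 of the 5 all CTT libraries lay above all control libraries, where 13.6% of all genes did so. Since these values took part in the choice of the genes, nothing is read from these shares. The median log2 fold change was 1.10 over the 5 genes and −0.02 over all genes tested. The call of Retnlg was lost when control replicate 2 or 3, or CTT replicate 1, 2 or 3, was left out, with log2 fold changes of 1.53 to 1.89 in those fits, and it was kept without control replicate 1.

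Neutrophil markers were higher in the same libraries. Their summed level (15 genes) was 4037 to 5981 CPM in control and 7703 to 12509 CPM after CTT, with a median log2 fold change of 1.05. In edgeR 3 of the 15 rose (Il1r2, Mmp8 and Trem1), and 10 by DESeq2. In edgeR 7 rose without control replicate 1, and 0 passed when any 1 of the other 5 libraries was left out. Monocyte markers summed to 2076 to 2651 CPM in control and 3033 to 5199 CPM after CTT, with a median log2 fold change of 0.20 and 0 of 10 past the edgeR threshold (3 higher and 1 lower at an unadjusted p under 0.05, and 1 higher by DESeq2). Nr4a1, an immediate early gene also used as a monocyte marker, made up most of the difference in that sum, at 943 ± 287 CPM in control and 2235 ± 921 CPM after CTT, while Csf1r read 733 ± 53.0 and 738 ± 170 CPM. The part of these markers in the differences of the 5 genes was not tested.

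**Figure D1:**
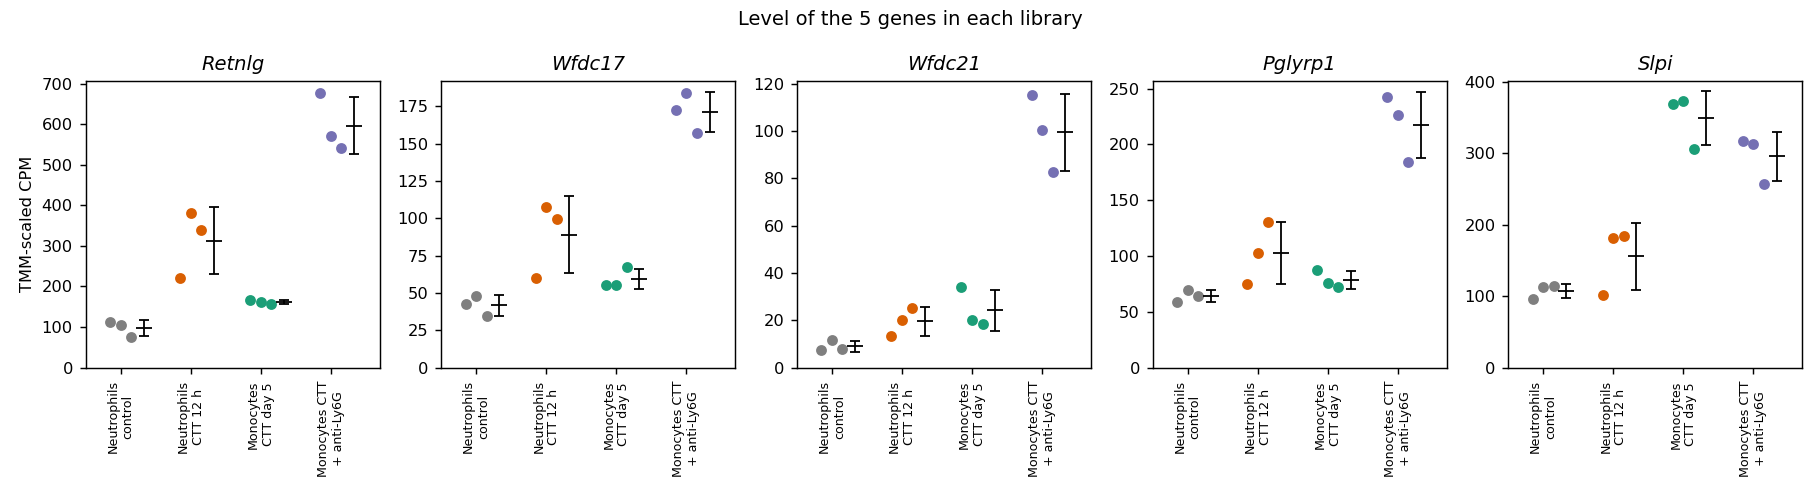
TMM-scaled CPM (linear axes from 0) of each of the 5 genes in the 12 libraries, 1 point per library in the order of replicates 1 to 3, with the mean and SD of each group of 3 as bars. Retnlg, Wfdc17, Wfdc21 and Pglyrp1 were highest in the anti-Ly6G monocytes, with Retnlg at 541 to 676 CPM, while Slpi was highest in CTT monocytes at 306 to 373 CPM.

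In monocytes 5 days after CTT, 4 of the 5 genes were several-fold higher with anti-Ly6G, and Slpi was not. Retnlg read 165, 161 and 156 CPM with CTT alone and 676, 571 and 541 CPM with anti-Ly6G, a log2 fold change of 1.89 (SE 0.09). The groups were far apart compared with their spread, which was 161 ± 4.92 and 596 ± 70.9 CPM (SD, n = 3).

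Wfdc21 had the greatest fold of the 5. It read 34.3, 20.1 and 18.3 CPM with CTT alone and 115, 100.4 and 82.9 CPM with anti-Ly6G, 4.11-fold higher (log2 fold change 2.04, SE 0.22). Replicate 1 of the CTT monocytes was well above the other two of its group and still below every anti-Ly6G library. Wfdc17 read 55.7, 55.1 and 67.1 CPM with CTT alone and 172, 184 and 157 CPM with anti-Ly6G, a log2 fold change of 1.53 (SE 0.09).

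Pglyrp1 read 87.7, 75.9 and 72.0 CPM with CTT alone and 242, 226 and 184 CPM with anti-Ly6G, a log2 fold change of 1.47 (SE 0.11). As with the WAP pair, no library of one group reached the range of the other. Slpi read 368, 373 and 306 CPM with CTT alone and 317, 313 and 256 CPM with anti-Ly6G, a log2 fold change of −0.24 (SE 0.10). Its groups overlapped, with CTT replicate 3 below anti-Ly6G replicates 1 and 2.

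In this comparison 4 of the 5 genes passed the edgeR threshold as higher, against 10.2% of the 13294 genes tested, and 0 passed as lower, against 5.12%. At an unadjusted p under 0.05 edgeR had 4 higher and 1 lower (Slpi). Of all 13294 tested genes 4118 had such a p, in either direction. DESeq2 called 4 of the 5 higher and 0 lower. Its share of all genes called higher is not given here, so nothing is read from that count. In the same 4 genes all anti-Ly6G libraries lay above all CTT libraries, as did 20.6% of all genes. The choice of the genes used these values too. Their median log2 fold change was 1.53, against 0.00 over all genes. Leaving out any 1 of the 6 libraries left 4 of the 5 past the threshold as higher.

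The neutrophil markers again moved with the 4 genes. They summed to 4729 to 6468 CPM in CTT monocytes and 12659 to 17071 CPM with anti-Ly6G, and 12 of 15 rose, with a median log2 fold change of 1.48. Ly6g itself rose from 13.6 ± 2.26 to 56.1 ± 7.19 CPM (log2 fold change 2.04, SE 0.14, edgeR adjusted p = 0.000106). Ly6g was thus higher in the libraries labelled anti-Ly6G, the antibody against its product, and its mean there was also above the 19.2 ± 6.42 CPM of CTT neutrophils in the other table. The libraries were grouped as labelled, and the depletion of neutrophils in these mice was not checked here. Of 10 macrophage markers 8 fell and 0 rose, and their sum was 9897 to 16616 CPM without and 7663 to 8312 CPM with the antibody. Of 10 monocyte markers 6 rose and 3 fell, and their sum was 3374 to 4973 CPM without and 3816 to 4417 CPM with the antibody. Ccr2, the receptor used for the selection, rose from 216 ± 41.5 to 513 ± 73.9 CPM (log2 fold change 1.25, SE 0.14, edgeR adjusted p = 0.000968). Csf1r fell from 2353 ± 597 to 1593 ± 60.2 CPM (−0.56, SE 0.15, edgeR adjusted p = 0.0363). How much of the difference in the 5 genes goes with these shifts in marker levels was not tested.

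**Figure D2:**
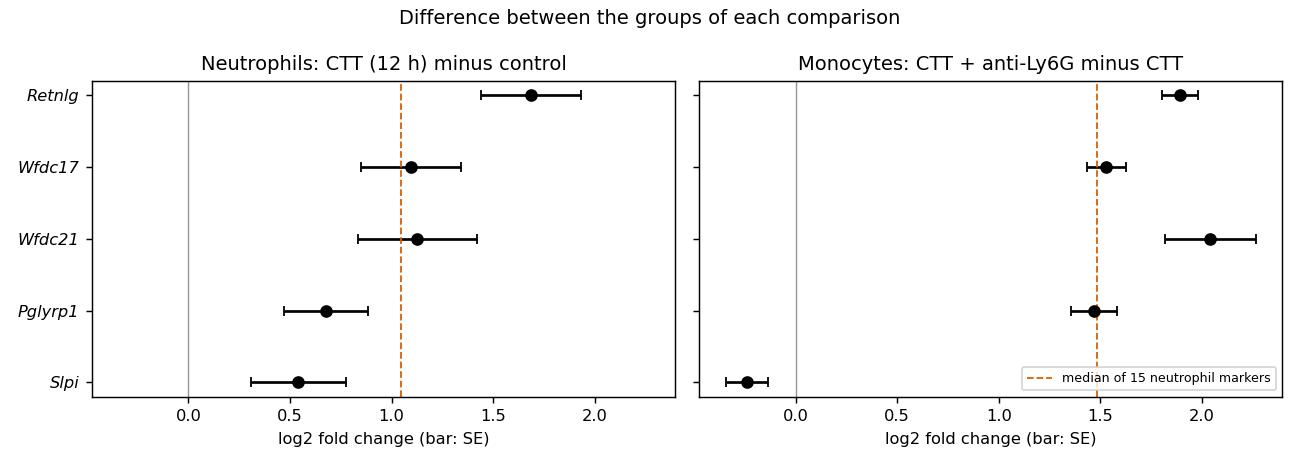
Log2 fold change (points) with its SE (bars) from edgeR for each gene, in neutrophils (CTT minus control) and in monocytes (CTT with anti-Ly6G minus CTT). The dashed line is the median of the 15 neutrophil markers, 1.05 and 1.48; Slpi lies below it in both panels, at 0.54 and −0.24.

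Set against the summed neutrophil markers of the same library, the members parted from each other. Pglyrp1 amounted to 1.36 ± 0.165% of that sum in control neutrophils, 1.10 ± 0.167% after CTT, 1.48 ± 0.106% in CTT monocytes and 1.43 ± 0.0254% with anti-Ly6G (SD, n = 3 each). Wfdc17 likewise stayed within a narrow band, with group means of 0.879% to 1.14% and overlapping ranges. The Pglyrp1 ratio in CTT neutrophils lay below that of both monocyte groups without overlap. For Pglyrp1 and Wfdc17 the group means of the ratio lay closer together, in fold, than those of the CPM. The same held for Retnlg (2.07 to 3.93%, against 97.2 to 596 CPM) and Wfdc21 (0.185 to 0.652%, against 8.94 to 99.5 CPM). Slpi was the exception, at 1.69 to 6.60% against 107 to 349 CPM.

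Retnlg stood at 2.76, 1.76 and 1.69% of the marker sum in control neutrophils and at 2.86, 4.79 and 2.71% after CTT. Control replicate 1, the library that stood apart, was above CTT replicate 3, so the groups overlapped on this scale. In monocytes Retnlg was at 2.56, 3.29 and 3.29% with CTT alone and 3.96, 3.56 and 4.28% with anti-Ly6G, which did not overlap.

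Wfdc21 was at 0.185 ± 0.00910% in control neutrophils and 0.209 ± 0.0404% after CTT, and at 0.443 ± 0.0766% in CTT monocytes and 0.652 ± 0.0252% with anti-Ly6G. Every monocyte library was above every neutrophil library. Slpi showed the widest range, with 5.69, 7.63 and 6.46% in CTT monocytes and 1.86, 1.95 and 2.02% with anti-Ly6G. In neutrophils Slpi was at 1.87 to 2.57% in control and 1.32 to 2.28% after CTT, and the CTT monocytes lay outside the range of all other groups. These ratios were formed from levels of 2 separately normalized tables and were not tested.

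**Figure D3:**
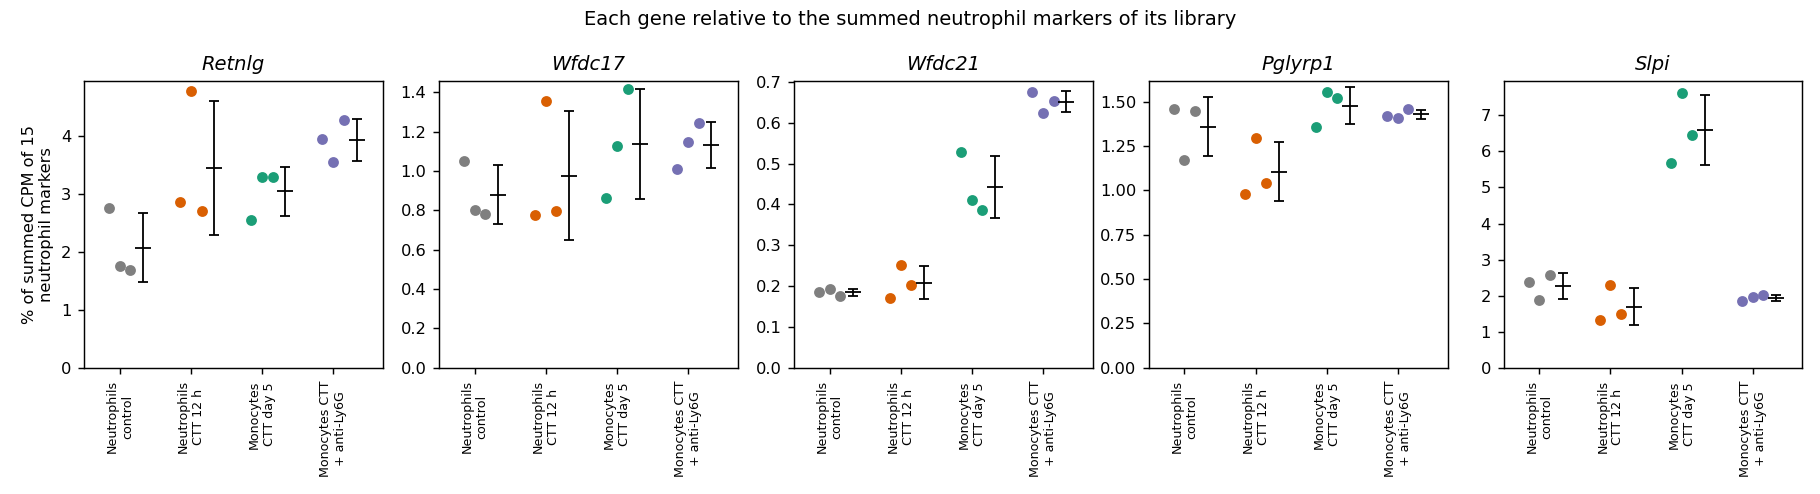
CPM of each gene as a percentage of the summed CPM of 15 neutrophil markers in the same library (linear axes from 0), 1 point per library, with the mean and SD of each group of 3. Wfdc17 overlaps between all groups, Wfdc21 is higher in all monocyte libraries, and Slpi stands at 5.69 to 7.63% in CTT monocytes alone.

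Across the 4 groups Retnlg, Wfdc17 and Pglyrp1 shared one order of mean CPM, from control neutrophils through CTT monocytes and CTT neutrophils to anti-Ly6G monocytes. For Retnlg no neighbours in that order overlapped, with means of 97.2 ± 19.6, 161 ± 4.92, 313 ± 82.8 and 596 ± 70.9 CPM. For Wfdc17 and Pglyrp1 the CTT monocytes and CTT neutrophils overlapped. With TMM factors taken over all 12 libraries, control neutrophils and CTT monocytes overlapped as well for Pglyrp1.

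Wfdc21 placed CTT monocytes (24.2 ± 8.76 CPM) above CTT neutrophils (19.5 ± 6.10 CPM), with overlapping values, and spanned 11.1-fold from the lowest to the highest group mean. Slpi ran from control neutrophils (107 ± 9.96 CPM) through CTT neutrophils (156 ± 46.7 CPM) and anti-Ly6G monocytes (295 ± 34.0 CPM) to CTT monocytes (349 ± 37.5 CPM). Its groups overlapped within each cell type and not between them. The 4 groups kept these places for all 5 genes with TMM over all 12 libraries and with the deposited FPKM. Selection, time and table differ together between the cell types and cannot be told apart.

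Levels of different genes were compared per length, as FPKM (fragments divided by gene length and library total). Retnlg had the highest FPKM of the 5 in control neutrophils, at 163 ± 32.2, place 338 of 16805 genes. In anti-Ly6G monocytes it reached 969 ± 108 FPKM, place 51 of 16954. Wfdc21 climbed furthest in rank, from 20.9 ± 5.67 FPKM in control neutrophils (place 3377) to 225 ± 34.9 FPKM in anti-Ly6G monocytes (place 263).

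Only in CTT monocytes was Slpi the highest of the 5, at a mean of 306 ± 31.9 FPKM (place 180), ahead of Retnlg at 267 ± 5.95 FPKM. Wfdc17 and Pglyrp1 had similar FPKM throughout, from 90.7 ± 15.4 and 96.3 ± 9.64 in control neutrophils to 361 ± 26.7 and 316 ± 41.1 in anti-Ly6G monocytes.

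Within groups the 5 genes tended to deviate together, though not in every library. In CTT replicate 3 of the monocytes Wfdc17 deviated by 0.19 on the log2 scale. The other members deviated there by −0.35 (Wfdc21) to −0.05 (Retnlg). In CTT replicate 1 of the neutrophils all 5 lay below their group mean, by 0.41 (Pglyrp1) to 0.56 (Slpi) on the log2 scale. Over the 12 libraries the deviations of the 10 pairs of genes correlated at a Pearson r of 0.51 to 0.89, with a median of 0.65. The closest pairs were Wfdc21 with Pglyrp1 (0.89) and Pglyrp1 with Slpi (0.89). These r were not taken without CTT replicate 1 of the neutrophils.

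The deviations of Wfdc21 and Pglyrp1 also followed the mean of the neutrophil markers (r = 0.91 and 0.89), and that of the monocyte markers as closely (0.89 and 0.90). Those of Slpi had an r of 0.64 with the neutrophil and 0.83 with the monocyte markers. Wfdc17 and Retnlg had 0.48 and 0.45 with the neutrophil markers, 0.55 and 0.52 with the monocyte markers and 0.67 and 0.62 with the dendritic cell markers. The genes share libraries and their scaling factor, and these values describe 12 points in 4 groups. The deviations were centered on the mean of each group, so fewer than 12 of them were free to vary. In CTT replicate 1 of the monocytes Wfdc21 was 0.56 above its group mean on the log2 scale while Retnlg was 0.04 above it.

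**Figure D4:**
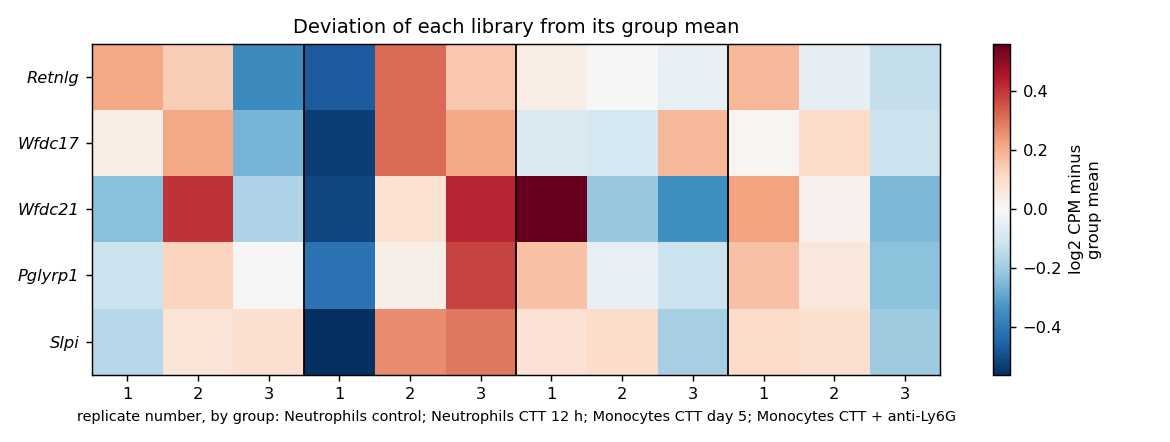
Log2 CPM of each gene in each library minus the mean of its group of 3 (color scale, blue below and red above the mean). The column of neutrophil CTT replicate 1 is blue in all 5 rows, between −0.41 and −0.56.

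Levels over the 12 libraries were most alike for Retnlg and Wfdc17 (Pearson r of log2 CPM 0.98), and Slpi was the least like the others (0.44 to 0.70). Among 12429 other genes tested in both tables, Retnlg was most like Bmx, Hp and Mocos, at r of 0.98 each. Bmx encodes a tyrosine kinase and Hp the hemoglobin-binding protein haptoglobin. Wfdc17 was most like Mmp9 (0.98), the gelatinase of neutrophil granules, Mocos (0.98) and Trem3 (0.97). Wfdc21 was most like Pygl, liver glycogen phosphorylase, Ccr2, the receptor used for the monocyte selection, and Smpdl3a, at 0.99 each. Pglyrp1 was most like Ly6g (0.99), Mmp25 (0.99), a membrane-bound metalloproteinase of leukocytes, and Anxa1 (0.98), annexin A1. Slpi was most like Ndfip2, Nlrp1b and Tnfrsf11a, at 0.98 each. Tnfrsf11a encodes RANK, the receptor for the osteoclast factor RANKL, and Nlrp1b may share reads with its near copy Nlrp1a. These values rest on 4 groups of libraries and were picked as the highest of many.

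The other genes of the 3 families were scarce. Over the 6 neutrophil libraries Retnlg had 40984 reads, against 223 for Retnla, 66 for Retn, which encodes resistin, and 5 for Retnlb. Over the 6 monocyte libraries it had 76512, against 650 for Retnla and 71 for Retn. Of the 18 WAP-domain genes that are not members, only Wfikkn1 (428 and 300 reads) and Wfikkn2 (79 and 61 reads) passed the filter on low counts in either table. Wfdc18, the gene between Wfdc17 and Wfdc21, had 25 and 78 reads.

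None of the other family genes passed the edgeR threshold in either comparison, counting 0 of 6 tested in neutrophils and 0 of 5 in monocytes. At an unadjusted p under 0.05, 1 of the resistin family was higher in neutrophils and 1 of the WAP family in monocytes, and DESeq2 called 0 in both. Without CTT replicate 1 of the monocytes, 1 gene of the peptidoglycan recognition family fell. Pglyrp2, an amidase that cleaves peptidoglycan, was the most abundant of them, at 26.7 ± 11.9 CPM in control and 26.9 ± 3.46 CPM after CTT (log2 fold change 0.01, SE 0.35, edgeR adjusted p = 0.986). In monocytes it read 17.2 ± 4.38 CPM with CTT alone and 14.1 ± 1.67 CPM with anti-Ly6G (−0.28, SE 0.19, edgeR adjusted p = 0.352).

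Of 12 tested genes for receptors and partners named for these proteins, 2 rose in neutrophils after CTT and 0 fell. Trem1, an amplifying receptor for which human PGLYRP1 has been described as a ligand and also a gene of the neutrophil markers, rose from 60.2 ± 9.58 to 219 ± 33.4 CPM (log2 fold change 1.86, SE 0.17, edgeR adjusted p = 0.0167). Tnfrsf1a, the tumor necrosis factor receptor TNFR1, rose from 86.8 ± 1.22 to 144 ± 7.69 CPM (0.73, SE 0.10, edgeR adjusted p = 0.0417). The median of the list was 0.38. Both calls were lost without any 1 library other than control replicate 1, and 3 genes rose without control replicate 1.

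In monocytes 5 of the 12 rose with anti-Ly6G and 1 fell. Anxa2, annexin A2, which binds SLPI on human macrophages, rose from 280.2 ± 31.9 to 527 ± 27.7 CPM (log2 fold change 0.91, SE 0.09, edgeR adjusted p = 0.000428). Plscr1, a phospholipid scramblase that binds SLPI in human cells, rose by 1.03 (SE 0.11, edgeR adjusted p = 0.000622), and Trem1 by 0.83 (SE 0.12, edgeR adjusted p = 0.00288). Cd4, the T cell coreceptor, fell from 49.8 ± 3.37 to 36.9 ± 1.71 CPM (−0.43, SE 0.08, edgeR adjusted p = 0.00633). The list's median was 0.22.

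Of the listed serine proteases around SLPI, 3 moved apart from it in monocytes. Elane (neutrophil elastase) and Ctsg (cathepsin G) encode enzymes that SLPI inhibits, and Prtn3 encodes proteinase 3, a close relative that SLPI inhibits poorly. With anti-Ly6G these 3 of 6 listed proteases rose and 0 fell: Ctsg by 2.00 (SE 0.43, edgeR adjusted p = 0.0167), Prtn3 by 1.99 (SE 0.44, edgeR adjusted p = 0.0179) and Elane by 1.52 (SE 0.40, edgeR adjusted p = 0.0365), all as log2 fold changes. The rest of the list did not pass. Mcpt4 was lower, by −0.63 (SE 0.24, edgeR adjusted p = 0.118), with every anti-Ly6G library below every CTT library. At an unadjusted p under 0.05 edgeR had 3 higher and 1 lower (Mcpt4). The list's median was 1.01. Without CTT replicate 3 or anti-Ly6G replicate 1, 0 of the 6 passed, and 2 passed without CTT replicate 2, anti-Ly6G replicate 2 or anti-Ly6G replicate 3.

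Summed over Elane, Prtn3 and Ctsg, the proteases stood at 217, 64.9 and 79.9 FPKM in CTT monocytes and at 560.3, 339 and 364 FPKM with anti-Ly6G. CTT replicate 1 was the high library of its group. Prtn3, whose product SLPI inhibits poorly, was the largest part of the sum in each of these libraries. It stood at 107, 30.4 and 38.2 FPKM with CTT alone and 299, 184 and 203 FPKM with anti-Ly6G. The ratio of Slpi to this sum, both in FPKM, was 1.47, 5.09 and 3.38 with CTT alone and 0.483, 0.794 and 0.611 with anti-Ly6G, and the groups did not overlap. In neutrophils the ratio was 2.49, 2.98 and 3.92 in control and 1.32, 4.19 and 2.09 after CTT, with overlapping groups.

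In neutrophils 0 of the 6 proteases passed in edgeR, with 3 higher at an unadjusted p under 0.05, and DESeq2 called 1 higher. Prtn3 went from 10.7 ± 1.76 to 23.5 ± 8.71 CPM (log2 fold change 1.13, SE 0.30, edgeR adjusted p = 0.21). The ratio of Slpi to the protease sum compares transcripts and not the amounts of inhibitor and enzyme. It was not formed without Prtn3.

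**Figure D5:**
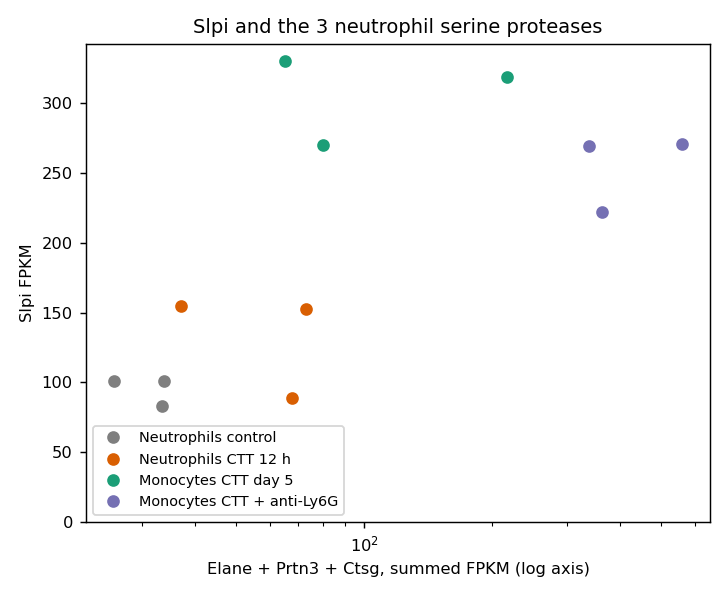
Slpi in FPKM (linear axis from 0) against the summed FPKM of Elane, Prtn3 and Ctsg (log axis), 1 point per library, colored by group. The anti-Ly6G monocytes lie to the right at 339 to 560.3 FPKM of protease transcripts, with Slpi at 222 to 271 FPKM, and the CTT monocytes lie between 64.9 and 217 FPKM of protease transcripts with Slpi at 270.0 to 330.1 FPKM.

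Other antimicrobial genes, not all of them for secreted proteins, were also higher in the anti-Ly6G monocytes. Of 18 tested, 12 rose and 0 fell, with a list median of 1.37. S100a8 and S100a9, the subunits of calprotectin, which withholds metals from microbes, rose, with log2 fold changes of 1.78 (SE 0.14) and 1.65 (SE 0.13), as did Hp at 1.55 (SE 0.12), each with an edgeR adjusted p of 0.000166 to 0.000169. Nos2, inducible nitric oxide synthase, rose from a very low level, 0.103 ± 0.0653 CPM, to 3.84 ± 1.03 CPM (5.19, SE 0.48, edgeR adjusted p = 0.000381). In neutrophils 0 of 17 passed in edgeR, with 7 higher at an unadjusted p under 0.05, 5 by DESeq2 and 1 in edgeR without control replicate 1. There Hp differed by 1.03 (SE 0.16, edgeR adjusted p = 0.0558) and Lcn2, which binds bacterial siderophores, by 1.20 (SE 0.30, edgeR adjusted p = 0.179) in log2 fold change. The list shares 6 genes with the neutrophil markers, whose sums are given above.

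Of 11 genes listed around the sensing of peptidoglycan, which include adaptors and other sensors, 1 rose in neutrophils. This was Nlrp3, an inflammasome sensor (76.8 ± 10.4 to 275 ± 97.3 CPM, log2 fold change 1.84, SE 0.26, edgeR adjusted p = 0.0406). Its call was lost without any 1 library other than control replicate 1, without which 3 genes of the list rose. In monocytes 4 of the 11 rose and 0 fell. They were Card9, an adaptor of lectin receptors (1.01, SE 0.12, edgeR adjusted p = 0.00105), Nlrp1a (0.94, SE 0.13, edgeR adjusted p = 0.00219), the beta-glucan receptor Clec7a (0.48, SE 0.10, edgeR adjusted p = 0.0148) and Tlr2 (0.45, SE 0.11, edgeR adjusted p = 0.0262). Without CTT replicate 3 of the monocytes 2 genes rose. The list medians were 0.49 and 0.13.

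Of 10 genes for factors of granulocyte formation, 0 passed in edgeR in neutrophils, with 6 higher at an unadjusted p under 0.05, 5 by DESeq2 and 4 in edgeR without control replicate 1. Cebpb, the C/EBP factor of emergency granulopoiesis, differed there by 0.80 in log2 fold change (SE 0.12, edgeR adjusted p = 0.0574). In monocytes 5 of the 10 rose with anti-Ly6G and 0 fell, with 1 that fell without CTT replicate 1. Spi1, which encodes PU.1, rose by 0.57 (SE 0.06, edgeR adjusted p = 0.000501), Cebpd by 0.80 (SE 0.09, edgeR adjusted p = 0.000728), Stat3 by 0.38 (SE 0.05, edgeR adjusted p = 0.00207) and Cebpb by 0.65 (SE 0.09, edgeR adjusted p = 0.00208). The list medians were 0.51 and 0.46.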

How the data were processed

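Spleen RNA of the 12 libraries was extracted with TRIzol, per the labels' protocols. The submitters' processing notes name HISAT2, HTSeq and the build mm10; for versions, annotation and strand, nothing is given in the sources used here. The authors deposited read counts (whole numbers) in 1 table for each cell type, and FPKM values of the same libraries. 0 value columns were left out.

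Counts were tested in R 4.3.3 with edgeR 4.0.16, each table on its own (filterByExpr, TMM, quasi-likelihood F test, two-sided, Benjamini-Hochberg adjustment over the 13058 or 13294 tested genes, threshold 0.05). The SE is the absolute log2 fold change divided by the square root of F. CPM were TMM-scaled, with a prior count of 2 for log2 CPM. The deposited FPKM served to compare genes with each other and in alternatives (log2 of FPKM plus 1 or 0.1, limma 3.58.1). DESeq2 1.42.0 was another alternative. The steps were tested on simulated data. RefSeq IDs (GRCm38.p6) matched 16709 and 16849 genes. At 30942849 counts or more per library, replicate spread outweighs counting error for the members.

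The members and the 16 other gene lists were chosen with earlier results of these data known, and no list is independent support for another. Named genes are the members, up to 4 tested genes of each of the 8 pathway lists with the smallest p in a comparison, and the 3 genes most like each member. Il1r2, Mmp8, Trem1, Ly6g, Nr4a1, Csf1r, Retnlb, Wfdc18 and, as a marker, Ccr2 were named after their values were seen.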

Additional observations from a re-analysis of the deposited data

How the results depend on the processing

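Of the 16 alternatives tried for each comparison, none reversed the sign of a log2 fold change of the 5 genes. The ranges in neutrophils were 1.53 to 1.89 (Retnlg), 0.94 to 1.32 (Wfdc17), 0.89 to 1.36 (Wfdc21), 0.47 to 0.86 (Pglyrp1) and 0.40 to 0.78 (Slpi). In monocytes they were 1.79 to 1.96, 1.47 to 1.62, 1.87 to 2.37, 1.39 to 1.58 and −0.33 to −0.15. In neutrophils DESeq2 gave 439 genes higher, 108 lower and 3 of the 5 members higher. Limma-trend on log2(FPKM + 1) gave 49 higher, 1 lower and 0 members, or 8 higher and 0 members with no filter, and with FPKM + 0.1 it gave 1 lower. Leaving out 1 library gave 0 to 257 genes higher, 0 to 31 lower and 0 to 1 members higher. In monocytes DESeq2 gave 1174 lower, and limma-trend on log2(FPKM + 1) with no filter 883 higher and 322 lower. Leaving out 1 library gave 706 to 1687 higher and 177 to 1168 lower. The cause was not tested; the fits without 1 library have fewer samples.

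With the replicate number as a block, 4 genes were higher, 1 lower and 0 members higher in neutrophils, and in monocytes 1043 genes were lower, with 1 member lower (Slpi, −0.24). Same-numbered libraries deviated together only weakly (r of 0.20, 0.01 and 0.19 in neutrophils and 0.07, −0.03 and 0.09 in monocytes). Replicates 1 and 3 matched their own number best in both comparisons, and replicate 2 did not. The r were small and the labels name no pairs, so the numbers were not taken as pairs. The list counts without each library were chosen after seeing the data. Groups of 3 libraries limit the precision, and Wfdc21 in control neutrophils rests on 261 to 371 reads a library.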

Other observations

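Of the lists not described above, 0 genes passed the edgeR threshold in neutrophils with all 6 libraries. There the erythroid markers had a median log2 fold change of −3.11, with 0 of 12 past the threshold (11 lower at an unadjusted p under 0.05, 4 by DESeq2). The cell cycle genes had a median of −1.39, with 0 of 10 (8 lower unadjusted, 1 by DESeq2), and control replicate 1 held 4039 CPM of them, against 1030.0 and 856 CPM in the other controls. B cell markers had a median of 0.21 with 0 of 10 (0 unadjusted, 0 by DESeq2, 1 lower without control replicate 1), and macrophage markers 0.04 with 0 of 10 (1 higher unadjusted, 1 by DESeq2). T and NK cell markers had a median of 0.02 with 0 of 9 (1 lower unadjusted, 0 by DESeq2), and dendritic cell markers −0.43 with 0 of 8 (3 lower unadjusted, 0 by DESeq2).

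In the anti-Ly6G monocytes 7 of 10 cell cycle genes rose, with a median log2 fold change of 0.47, and their sum was 1119 to 1286 CPM with CTT alone and 1470.2 to 1714 CPM with the antibody. By DESeq2 9 cell cycle genes rose, and 9 in edgeR without CTT replicate 1. Of 10 B cell markers 2 fell in edgeR (median −0.48), with 10 lower at an unadjusted p under 0.05, 9 by DESeq2 and 10 in edgeR without CTT replicate 1. Of 12 erythroid markers 3 fell (median −0.53), with 3 by DESeq2 and 2 in edgeR without CTT replicate 1. Of 9 T and NK cell markers 3 rose and 0 fell (median 0.42), with 4 higher by DESeq2, and 3 rose and 1 fell in edgeR without CTT replicate 1. Of 8 dendritic cell markers 0 passed in edgeR (1 higher at an unadjusted p under 0.05, 0 by DESeq2). The part of these genes in the differences of the 5 members was not tested.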
